A study of Homo sapiens with 52 samples.

Results

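This is an account of gene expression in WI-38 human embryonic lung fibroblasts 2 days after a transient injury of the plasma membrane, compared with untreated cells. The PMD-Sen day 2 cells were exposed for 24 h to medium with 0.0090% sodium dodecyl sulfate (SDS), a detergent, then washed and kept in fresh medium for 2 days. The Untreated cells were young cells of the same line at a population doubling level (PDL) of 32 to 46. The labels give no culture day for the Untreated cells and no PDL for the SDS cells. Whether the groups were matched in culture time or passage is therefore not known. Each group was sequenced as 2 libraries, described as independent samples of 1 cell line, so the p-values below measure the spread between cultures of a single line. Both groups were grown in DMEM with serum. The whole series holds 52 labelled libraries in 26 groups. The genes described are the 14920 of 59409 listed genes whose mean normalized count over the 4 libraries was at least 10; a further 29486 genes were at 0 in all 4 libraries and 15003 lay above 0 and under 10. At the edge of that rule, C1RL-AS1 and WHAMMP3 stood just outside with a mean of 9.9998 each, and AL022328.3 and EGFEM1P just inside with means of 10.0005 and 10.008.

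Normalized counts, meaning reads divided by the size factor of the library, are given below for each library, with A and B naming the deeper and the shallower library of a group. They could be worked back to whole reads for 14857 of the 14920 genes (99.6%), and the 63 others were mostly very abundant genes such as COL1A1, ACTB and FN1, for which only group levels are given. The untreated libraries held about 18832068 (A) and 15373723 (B) reads and the SDS libraries about 51451215 (A) and 41194856 (B). Among 10698 genes with a mean of at least 100, the median size of the log2 ratio between the 2 libraries of a group was 0.110 for untreated and 0.0727 for SDS cells. Of 12 tested fibroblast markers, 9 were lower and 2 higher at day 2, and VIM and S100A4, both fibroblast-lineage genes, were the higher ones. White blood cell markers (2 of 10 tested) summed to 32.3 and 36.01 normalized counts in the untreated and 46.5 and 37.6 in the SDS libraries, and PTPRC, CD68 and LYZ had a mean under 10. The endothelial markers PECAM1 and CDH5 and the epithelial marker CDH1 were under 10 as well, but other markers of those lists, such as TEK and KRT19, were not. The 4 tested endothelial markers summed to 2830 and 3005 in untreated and 1376 and 1468 in SDS libraries. For the 5 tested epithelial markers the sums were 3775 and 3264 in untreated and 3771 and 4266 in SDS libraries.

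A torn plasma membrane is resealed quickly by calcium-triggered steps in which annexins bind the wound edge, lysosomes fuse with the surface and the ESCRT-III complex sheds the damaged patch. Cells that survive such injury can later enter senescence, a lasting arrest held by inhibitors of cyclin-dependent kinases such as p21 and p16, with changed secretion and a reworked matrix. Fibroblasts are the main makers of collagen in connective tissue, and their contractile actin program is driven by the transcription factor SRF, whose coactivators respond to the pool of free actin.

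At day 2, 2352 genes (15.8% of those tested) differed between SDS and untreated cells at an adjusted p under 0.05, of which 1312 (8.79%) were higher and 1040 (6.97%) lower. Counts of called genes in the lists below are to be read beside these shares of all genes. The falls were deeper than the rises: the median log2 fold change was -0.61 among called lower genes and 0.40 among called higher genes, and 228 of the falls but 98 of the rises were at least 2-fold. Over all tested genes the median log2 fold change was 0.01 and the median SE 0.17. All 1290 called higher genes with recovered reads, and 1026 of 1027 called lower ones, had groups that did not overlap, against 5082 (34.2%) of all genes with both SDS libraries above both untreated ones and 4423 (29.8%) below. Centring on the median of well-expressed genes turned the split to 1020 higher and 1217 lower, so the excess of higher calls depended on the scaling. With 1 library left out, limma called between 1026 genes (without untreated library A) and 2283, and 1288 without SDS library A.

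**Figure D1:**
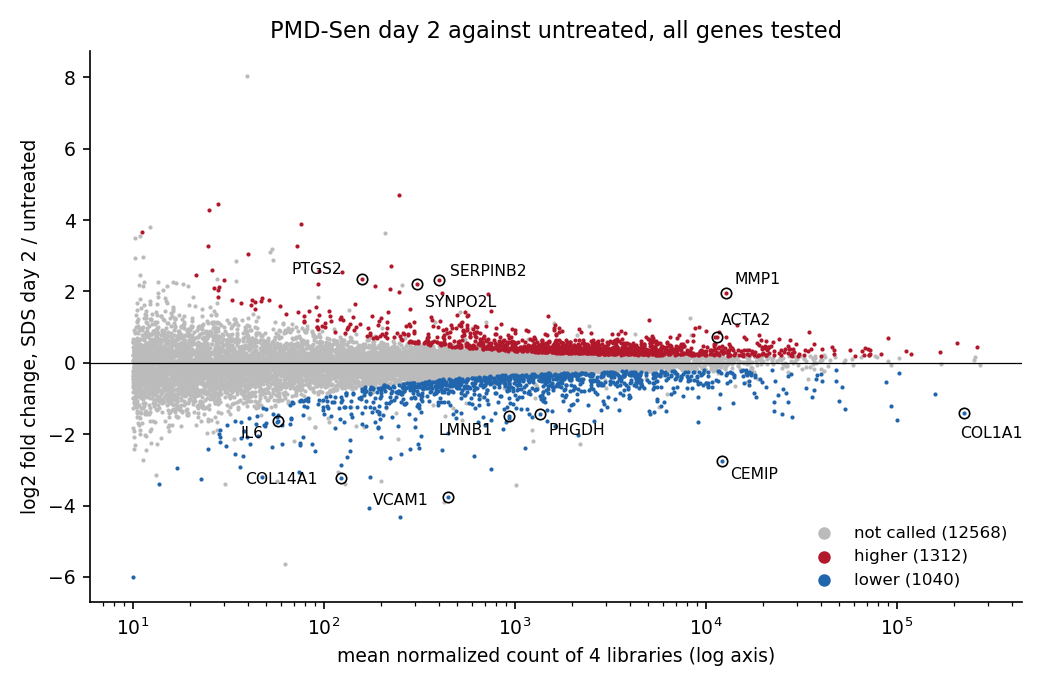
Log2 fold change of PMD-Sen day 2 against Untreated (vertical axis) plotted against the mean normalized count over 4 libraries (horizontal log axis) for 14920 genes, with 1312 called higher and 1040 called lower genes in colour and others in grey. The largest named falls reach below -3 and the largest named rises of genes without a near-identical copy lie near 2.

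Log2 fold changes ran from -6.01 to 8.04 over all tested genes, and both ends were genes with a mean under 100. For a ranking, a filter on names set aside symbols of accession or LINC form. It also took out other symbols that begin with letters such as AC, AL, AP or CR and hold a digit, ACTA2 among them. The 12 largest falls and 12 largest rises among the remaining called genes whose mean reached 100 are described here. Of these falls 8 were in genes without a known near-identical copy, overlapping gene or duplicated region. VCAM1, a receptor for white blood cells that inflammatory signals induce, stood at 1030 and 632 in untreated and 28.5 and 95.1 in SDS libraries, 13.5-fold lower (log2 fold change -3.75, SE 0.86, adjusted p = 0.000248). The gene lies on chromosome 1 from 100719742 to 100739045 in GRCh38.p14, the build used for every position here. COL14A1, a collagen of fibril surfaces, was at 231 and 214 in untreated and 18.1 and 30.1 in SDS libraries, 9.35-fold lower (log2 fold change -3.22, SE 0.34, adjusted p = 5.81e-19). CEMIP, which takes part in the breakdown of hyaluronan, went from 21815 and 20432 to 2472 and 3856 (log2 fold change -2.74, SE 0.32, adjusted p = 1.33e-15). In each of these genes both SDS libraries lay far below both untreated ones. ITGA8, the integrin alpha 8 chain, was at 967 and 1123 in untreated and 163 and 181 in SDS libraries (log2 fold change -2.60, SE 0.16, adjusted p = 1.84e-55), and the groups were well apart. WNT2, a secreted WNT ligand, had a log2 fold change of -2.64 (SE 0.35). ADAMTS8, a secreted metalloprotease, TMEM176A, a membrane protein, and TOX, a nuclear HMG-box protein, had -2.98 (SE 0.71), -2.68 (SE 0.24) and -2.55 (SE 0.28). At day 1 the log2 fold changes had been -6.24 (SE 0.39) in VCAM1, -3.98 (SE 0.46) in ADAMTS8 and -3.45 (SE 0.10) in CEMIP. TOX had been at -3.41 (SE 0.31), WNT2 at -2.79 (SE 0.38) and COL14A1 at -2.67 (SE 0.36). TMEM176A had been at -2.45 (SE 0.27) and ITGA8 at -2.61 (SE 0.20). In WNT2, TMEM176A and ITGA8 the gap between day 1 and day 2 was smaller than the SE of either day. No difference test is given for these gaps.

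Of the 12 largest rises at that mean, 8 were likewise in genes without such a copy. SERPINB2, the plasminogen activator inhibitor type 2, rose from 131 and 140 to 730 and 610 normalized counts, 4.95-fold higher (log2 fold change 2.31, SE 0.20, adjusted p = 6.5e-27). MMP1 (chromosome 11, 102789919 to 102798160), the interstitial collagenase, rose from 3872 and 6553 to 21804 and 18999, 3.91-fold higher (log2 fold change 1.97, SE 0.38, adjusted p = 8.78e-06). PTGS2, the inducible cyclooxygenase, stood at 26.4 and 77.4 in untreated and 313 and 218 in SDS libraries (log2 fold change 2.36, SE 0.75, adjusted p = 0.0137), with untreated libraries that differed from each other as well. SYNPO2L, an actin-bundling protein of muscle and other contractile cells, was 4.63-fold higher at 113 and 104 in untreated and 568 and 439 in SDS libraries (log2 fold change 2.21, SE 0.23, adjusted p = 8.61e-19). FAM20C, the kinase that phosphorylates secreted proteins, was at 67.6 and 68.4 in untreated and 239 and 365 in SDS libraries (log2 fold change 2.15, SE 0.30, adjusted p = 1.49e-10). IL13RA2, a decoy receptor for interleukin 13, KCNC4, a potassium channel, and GMNC, a geminin relative, rose by 1.98 (SE 0.24), 2.06 (SE 0.26) and 1.93 (SE 0.17) on the log2 scale. At day 1 the log2 fold changes had been 3.61 (SE 0.19) in SERPINB2, 3.41 (SE 0.37) in MMP1, 3.26 (SE 0.22) in IL13RA2 and 2.78 (SE 0.26) in KCNC4. They had been 1.48 (SE 0.47) in PTGS2, 1.04 (SE 0.21) in GMNC, 0.22 (SE 0.34) in SYNPO2L and -0.97 (SE 0.52) in FAM20C. No difference test between the days is given for these genes. Leaving out 1 library, the adjusted p of limma rose for PTGS2 to 0.0811 without untreated library A and FAM20C to 0.0898 without untreated library A (also lost without untreated library B).

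**Figure D2:**
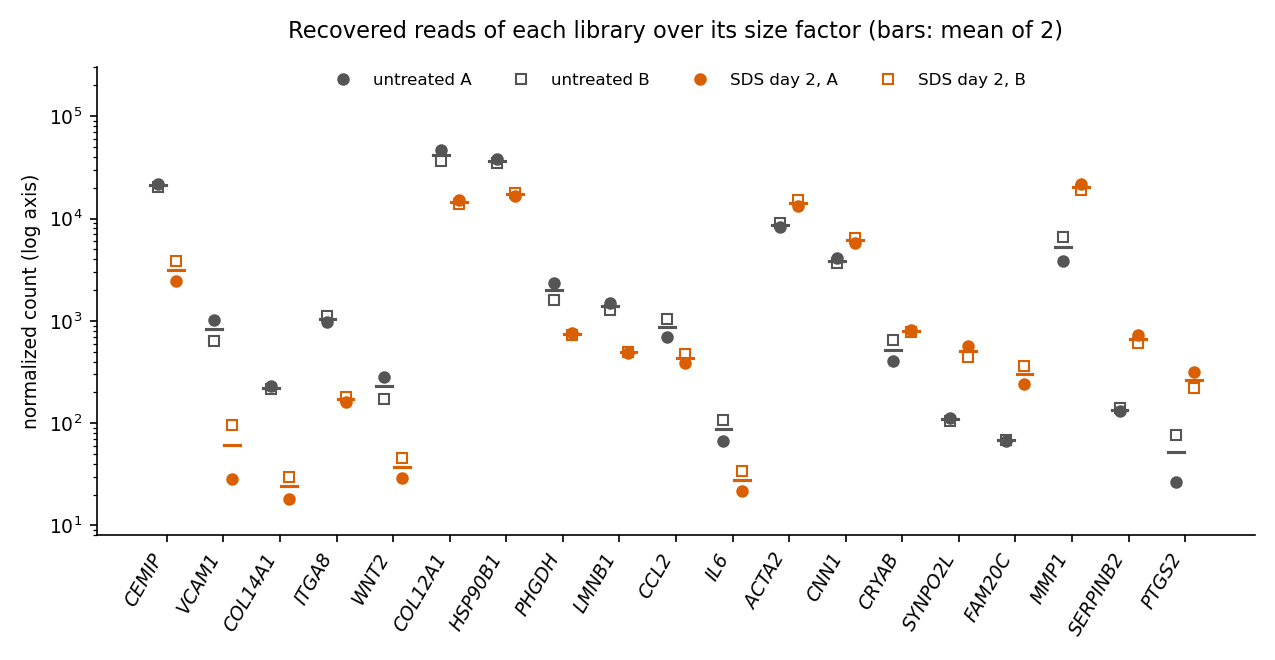
Normalized counts (vertical log axis) of 19 named genes (horizontal axis) in each of the 2 untreated and 2 SDS libraries, 1 point per library with a bar at the mean of each group and no error bar, since every replicate is shown. For the genes that fell, such as COL14A1 and CEMIP, both SDS points lie below both untreated points, and for those that rose, such as MMP1 and SERPINB2, both lie above them.

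The 4 other falls and 4 other rises belonged to genes with a near-identical copy, an overlapping gene or a duplicated or variable region, where reads can be assigned to the wrong copy, and they are given as uncertain. U2AF1, a splicing factor, was at 314 and 335 in untreated and 21.9 and 16.4 in SDS libraries, while its copy U2AF1L5 was at 178 and 164 in untreated and 882 and 447 in SDS libraries, so that one fell as the other rose. NEDD8, a ubiquitin-like modifier that overlaps a readthrough gene, was at 10.3 and 27 in untreated and 666 and 293 in SDS libraries. FBL, the fibrillarin methyltransferase of ribosomal RNA, was at 899 and 61.2 in the untreated libraries, which did not resemble each other, and at 25.7 and 21.9 in the SDS libraries. GTPBP6, which is annotated more than once in the genome, NOMO3, of a duplicated family, CYFIP1, beside duplicated segments, and MICA, in the variable MHC region, changed by -3.20, -2.86, 2.72 and 2.54 on the log2 scale, with SEs of 0.29, 0.34, 0.69 and 0.44. In limma, leaving out a library ended the calls of several of them. The adjusted p rose for FBL to 0.301 without SDS library A (also lost without untreated library A and SDS library B), NEDD8 to 0.192 without untreated library A (also lost without untreated library B), CYFIP1 to 0.3 without untreated library A (also lost without untreated library B), MICA to 0.245 without untreated library A (also lost without untreated library B) and U2AF1L5 to 0.171 without untreated library A (also lost without untreated library B).

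Genes of the collagen matrix were lower at day 2. Of 25 tested collagen genes, 20 were called lower and 0 higher, against 6.97% of all genes called lower, with a median log2 fold change of -0.95 beside 0.01 over all genes. The 8 fibrillar collagens, which form the load-bearing fibres, held 7 of the falls at a median of -1.18, the 8 basement membrane and network collagens 6 at -0.81, and the 9 fibril-associated and other collagens 7 at -1.08. COL3A1, the type III fibril chain, went from 36214 and 29153 to 11486 and 14275 (log2 fold change -1.34, SE 0.12, adjusted p = 2.22e-28). COL1A1, the main type I chain, was 2.66-fold lower (log2 fold change -1.41, SE 0.10, adjusted p = 4.78e-39), with group levels of 326765 and 122668 normalized counts. COL12A1, a fibril-associated collagen, stood at 47163 and 36295 in untreated and 15326 and 13821 in SDS libraries (log2 fold change -1.52, SE 0.11, adjusted p = 1.43e-39). No SDS library reached an untreated one in either COL3A1 or COL12A1. COL15A1, of the basement membrane zone, was lower at 627 and 434 in untreated and 95.8 and 107 in SDS libraries (log2 fold change -2.40, SE 0.23, adjusted p = 1.26e-23). COL5A3, a minor fibril chain, changed by -1.83 (SE 0.26) on the log2 scale. With 1 library left out, limma called 14 to 16 of the 20 collagens with recovered reads lower.

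The enzymes and chaperones that fold and cross-link collagen fell as well, with 11 of 22 called lower and 0 higher at a median of -0.23. SERPINH1, the collagen chaperone HSP47, was at 25077 and 23007 in untreated and 11646 and 13322 in SDS libraries (log2 fold change -0.95, SE 0.09, adjusted p = 1.23e-23). LOXL2, a cross-linking lysyl oxidase, was at 23816 and 22072 in untreated and 12001 and 13616 in SDS libraries (log2 fold change -0.84, SE 0.09, adjusted p = 1.52e-19). Its relative LOXL3 changed by -1.27 (SE 0.14). PCOLCE, which aids the trimming of procollagen, and P3H1 and P3H2, prolyl 3-hydroxylases, changed by -0.94, -0.69 and -0.73. Elastic fibre, proteoglycan and matricellular genes held 20 falls and 1 rise among 35, at a median of -0.47. ELN, elastin itself, stood at 238 and 407 in untreated and 72.3 and 79.3 in SDS libraries (log2 fold change -2.09, SE 0.29, adjusted p = 2.59e-11), below both untreated libraries in both SDS libraries. FBN2, a fibrillin of microfibrils, was 3.16-fold lower at 14495 and 13022 in untreated and 4157 and 4552 in SDS libraries (log2 fold change -1.66, SE 0.09, adjusted p = 1.13e-73). DCN, the collagen-binding proteoglycan decorin, FBLN1, fibulin 1, and POSTN, periostin, changed by -1.44 (SE 0.27, adjusted p = 4.59e-06), -1.35 (SE 0.11, adjusted p = 2.08e-31) and -1.67 (SE 0.16, adjusted p = 5.64e-24). VCAN, the large proteoglycan versican, was the 1 call in the other direction at 5882 and 6188 in untreated and 8102 and 7042 in SDS libraries (log2 fold change 0.33, SE 0.09, adjusted p = 0.00465). Leaving out 1 library gave 11 to 21 lower calls by limma among 31 of these genes with recovered reads, 11 without untreated library A and 12 without SDS library A. The adjusted p rose for VCAN to 0.155 without SDS library A (also lost without untreated library A and untreated library B).

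Cell-matrix receptors and laminins were divided. Of 10 laminin chains 7 were lower and 1 higher, and of 16 integrin chains 4 were lower and 2 higher. ITGA6, a laminin-binding integrin chain, rose from 5870 and 5858 to 13005 and 10223 (log2 fold change 0.99, SE 0.11, adjusted p = 9.79e-18). ITGA1, a collagen-binding chain, fell from 4478 and 4915 to 2628 and 2874 (log2 fold change -0.77, SE 0.10, adjusted p = 8.12e-14). LAMA5, a laminin alpha chain, changed by -1.19 (SE 0.33), and LAMB3, a laminin beta chain, by 0.54 (SE 0.17). Matrix proteases and their inhibitors were also divided, with 6 of 24 higher and 7 lower. TIMP1, a secreted inhibitor of metalloproteinases, rose from 24324 and 24897 to 47106 and 42171 (log2 fold change 0.86, SE 0.08, adjusted p = 5.5e-24). TIMP3, which stays bound to the matrix, rose from 24147 and 24269 to 34084 and 35873 (log2 fold change 0.53, SE 0.07, adjusted p = 3.16e-11). Both inhibitors and MMP1 had SDS libraries above both untreated libraries. ADAMTS1 and ADAMTS5, proteoglycan-cleaving proteases, were lower, with log2 fold changes of -0.88 (SE 0.07) and -0.90 (SE 0.19). In limma without 1 library the adjusted p rose for LAMB3 to 0.0741 without untreated library A (also lost without SDS library A). It called 7 of 25 laminins and integrins lower without untreated library A or SDS library A, against 11, and 1 higher, against 3. Of 23 proteases and inhibitors it called 5 higher without untreated library A, against 8.

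KCl-treated cells of the same day set the scale for the matrix genes. The Ca2+-Sen day 2 cells were exposed for 24 h to medium with 75 mM KCl, which depolarises the membrane and lets calcium in, and were compared with the same 2 untreated libraries. The test of the difference, the gap between the log2 fold changes over its SE, called 354 genes (2.37%), 154 (1.03%) higher and 200 (1.34%) lower in SDS than in KCl cells. Because the shared untreated libraries enter that SE 2 times, it is too large and the count is a low one. The median log2 fold change of the 25 collagens was -0.95 after SDS and -0.20 after KCl, and 10 of them were called lower in SDS than in KCl cells, with 0 higher. For COL1A1 the values were -1.41 and -0.19, a difference of -1.22 (SE 0.14, adjusted p = 6.01e-14), and for COL3A1 -1.34 and -0.15, a difference of -1.19 (SE 0.16, adjusted p = 5.61e-11). COL12A1 stood at -1.52 and -0.40, a difference of -1.12 (SE 0.15, adjusted p = 1.62e-10). Among collagen-folding genes 8 of 22, and among elastic fibre and matricellular genes 11 of 35, were lower in SDS than in KCl cells, with 0 higher in either list. POSTN was at -1.67 after SDS and 0.16 after KCl (difference -1.82 (SE 0.23, adjusted p = 2.09e-12)), and DCN at -1.44 and -0.29 (difference -1.16 (SE 0.29, adjusted p = 0.00571)). The 2 treatments differ in agent and dose, and one dose of each was sequenced, so the difference between agents and that between strengths of injury cannot be told apart.

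**Figure D3:**
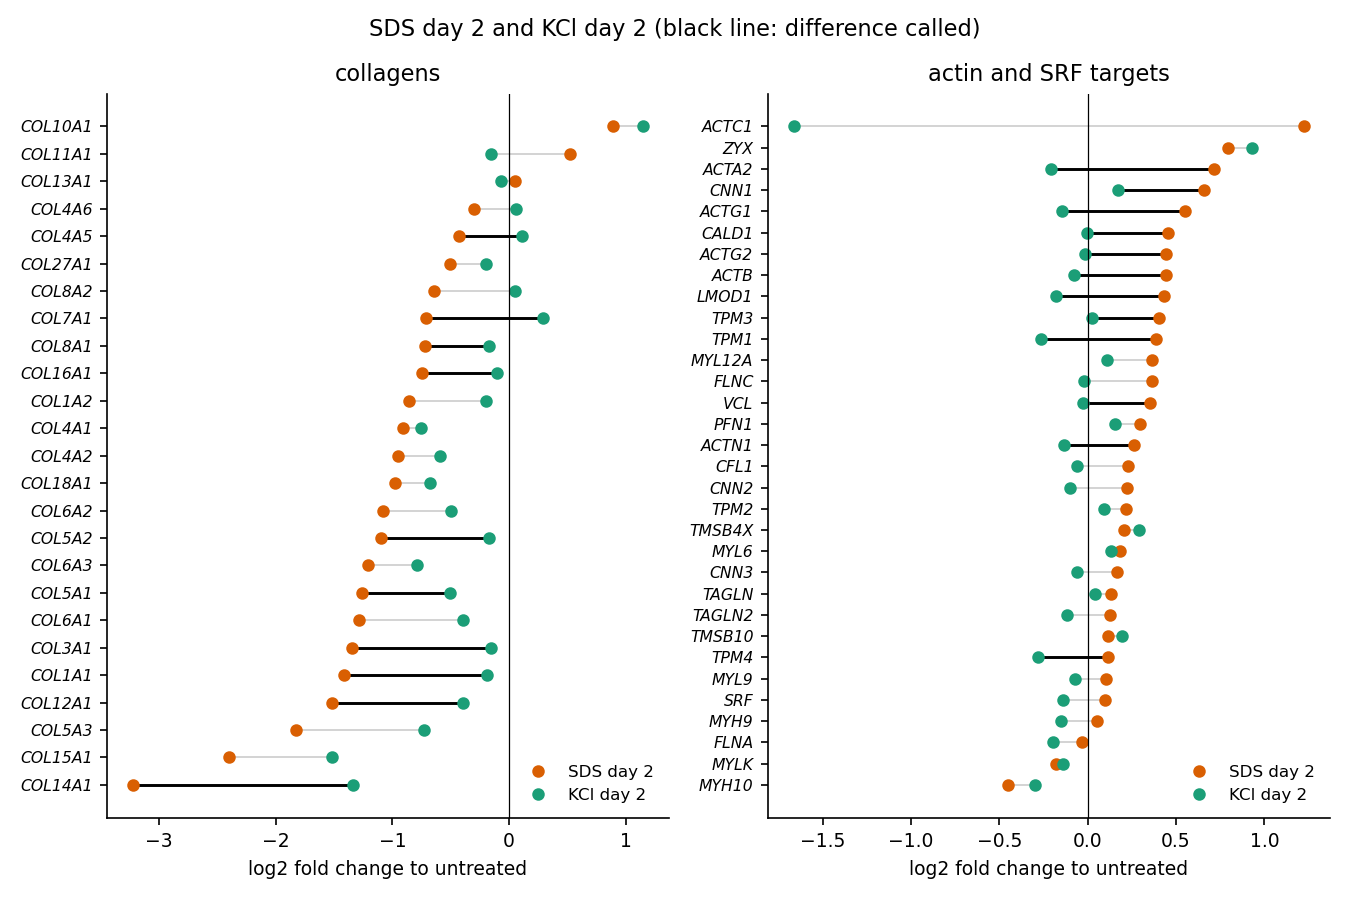
Log2 fold change against Untreated at day 2 (horizontal axis) of collagen genes and of actin and SRF genes after SDS and after KCl, 2 points per gene joined by a line that is black where the difference was called. Apart from COL11A1 and COL13A1, collagens sit further left after SDS than after KCl, and actin genes such as ACTA2 and CNN1 further right. Values rest on 2 libraries a group.

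Genes of actin and of SRF control rose at day 2. Of 32 tested, 17 were called higher and 1 lower, against 8.79% of all genes called higher, with a median log2 fold change of 0.25. ACTA2 (chromosome 10, 88935074 to 88991337), the smooth muscle actin of contractile fibroblasts, was at 8243 and 9041 in untreated and 13330 and 15039 in SDS libraries, 1.64-fold higher (log2 fold change 0.72, SE 0.09, adjusted p = 2.39e-13). CNN1, calponin, which binds and steadies actin filaments, was at 4082 and 3657 in untreated and 5746 and 6482 in SDS libraries (log2 fold change 0.66, SE 0.10, adjusted p = 1.06e-09). ACTG2, an actin of smooth muscle, was at 19167 and 17328 in untreated and 23154 and 26485 in SDS libraries (log2 fold change 0.44, SE 0.09, adjusted p = 2.42e-05). In all 3 genes both SDS libraries exceeded both untreated ones. ACTG1, cytoplasmic gamma actin, and CALD1, caldesmon, whose reads per library were not recovered, changed by 0.55 (SE 0.08, adjusted p = 6.22e-10) and 0.45 (SE 0.08, adjusted p = 2.38e-06). MYH10, a nonmuscle myosin heavy chain, was the 1 lower call at 5394 and 4512 in untreated and 3456 and 3793 in SDS libraries (log2 fold change -0.45, SE 0.10, adjusted p = 0.000295). In limma with 1 library left out, 5 to 10 of 20 members with recovered reads were called higher (5 without SDS library A, 6 without untreated library A or SDS library B, 11 with all libraries). By the same fits the adjusted p rose for MYH10 to 0.0818 without SDS library A (also lost without untreated library A).

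These genes had stood low a day earlier. Against day 1 the difference test called 543 genes (3.64%), 379 (2.54%) higher and 164 (1.1%) lower at day 2, and 22 of the 32 actin and SRF genes were among the higher ones, with 0 among the lower ones. The median of the list was -0.86 at day 0, -0.34 at day 1, 0.25 at day 2, 0.21 at day 3 and -0.01 at day 4, each against the same untreated libraries. By day 4, 5 members were called higher and 6 lower than in untreated cells. ACTA2 went from -1.95 at day 1 to 0.72 at day 2, a difference of 2.66 (SE 0.13, adjusted p = 1.72e-87), and CNN1 from -1.22 to 0.66, a difference of 1.88 (SE 0.14, adjusted p = 1.77e-35). At day 3 they were at 0.72 and 0.91, and neither differed from day 2 by the test (adjusted p = 1 and 0.954). ACTG1 was the 1 member higher at day 2 than at day 3, at 0.55 against 0.06 (difference 0.50 (SE 0.13, adjusted p = 0.0273)). At day 4 ACTA2 was at 0.16, CNN1 at 0.68 and ACTG1 at -0.29. After KCl the median was -0.07, and 12 members were higher in SDS than in KCl cells at day 2, among them ACTA2, which was at -0.21 after KCl (difference 0.92 (SE 0.12, adjusted p = 9.08e-11)). Outside the lists, and chosen after its values were seen, MYOCD, a coactivator of SRF in smooth muscle, was at 323 and 274 in untreated and 74.5 and 97.8 in SDS libraries (log2 fold change -1.80, SE 0.26, adjusted p = 2.12e-10).

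**Figure D4:**
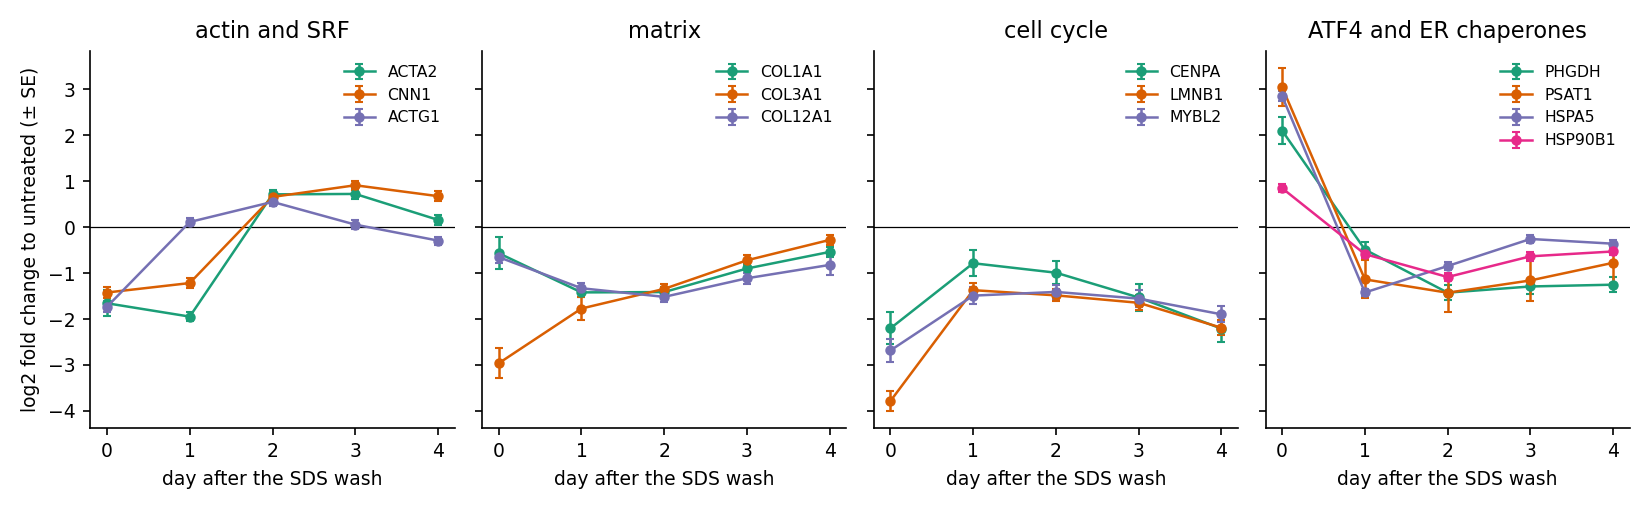
Log2 fold change against Untreated (vertical axis, bars are 1 SE) over days 0 to 4 after SDS for actin genes, collagens, cell-cycle genes and amino acid and ER chaperone genes, in 4 panels. ACTA2 and CNN1 cross from below 0 at day 1 to above 0 at day 2, the 3 collagens lie below 0 on each day, and the ER chaperones and PHGDH lie above 0 at day 0 and below it at day 2. All days share the same 2 untreated libraries.

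SRF binds a DNA motif called the CArG box, and the sequences are shown because the members that rose differ in whether the letters occur near their start. A match to the CArG box on either strand lay in the 250 bases before the start of 9 of 30 matched actin and SRF genes, 4 of them called higher, and in 407 of 35116 RefSeq promoters (1.16%). Counted by gene, as the list is, 156 of 10508 tested genes with a RefSeq promoter (1.48%) had a match. Stretches around 3 matches, with 15 bases on each side and the motif in capitals, are given 5′ to 3′ on the strand of the gene from RefSeq's GRCh38.p14, for ACTG2 (chr2:73892883-73892922, plus strand), ACTG1 (chr17:81512869-81512908, minus strand) and CNN2 (chr19:1026504-1026543, plus strand):
ACTG2: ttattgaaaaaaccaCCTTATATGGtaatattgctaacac
ACTG1: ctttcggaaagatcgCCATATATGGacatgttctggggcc
CNN2: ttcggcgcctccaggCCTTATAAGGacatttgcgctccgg
The 3 genes shown and ACTN1 were called higher, while MYLK, SRF, ACTC1, TPM4 and FLNA also held a match and were not called. The 20 tested members without a match had a median log2 fold change of 0.33 and 12 higher calls, the 9 with one a median of 0.22. A match is a description of letters, not a site shown to be bound, and no match speaks only of this window.

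Genes of the dividing cell were lower at day 2. Of 73 tested cell-cycle genes 43 were lower and 1 higher, at a median of -0.50, made up of 16 of 30 replication genes, 21 of 30 mitosis genes and 6 of 13 regulators. LMNB1, lamin B1 of the nuclear envelope, whose loss marks senescent fibroblasts, was at 1491 and 1271 in untreated and 488 and 500 in SDS libraries, 2.8-fold lower (log2 fold change -1.48, SE 0.13, adjusted p = 5.05e-26). MYBL2, a transcription factor of the late cell cycle, was at 779 and 736 in untreated and 285 and 285 in SDS libraries (log2 fold change -1.41, SE 0.16, adjusted p = 2.62e-17). TK1, thymidine kinase of S phase, was at 2345 and 2261 in untreated and 1221 and 1230 in SDS libraries (log2 fold change -0.91, SE 0.10, adjusted p = 8.14e-17). In these 3 genes the libraries of a group lay close together and the groups far apart. POLA1, a subunit of DNA polymerase alpha, and CENPA, the centromeric histone, changed by -0.92 (SE 0.19) and -0.99 (SE 0.25). E2F7, a repressor of E2F target genes, was the 1 higher call at 1112 and 1055 in untreated and 1903 and 1479 in SDS libraries (log2 fold change 0.64, SE 0.14, adjusted p = 6.13e-05). Without untreated library A limma called 16 of the 73 lower, against 45 with all libraries and up to 44 with another one left out. The call was lost for some named genes, with an adjusted p of limma that rose for CENPA to 0.0695 without untreated library A and E2F7 to 0.104 without untreated library A (also lost without untreated library B).

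The shortfall of mitosis genes was shallower at day 2 than at day 3. The median of the 30 mitosis genes was -2.23 at day 0, -0.44 at day 1, -0.49 at day 2, -1.24 at day 3 and -1.98 at day 4. Over all 73 cell-cycle genes the median was -1.93 at day 0, -0.43 at day 1, -0.50 at day 2, -1.05 at day 3 and -1.59 at day 4. Against day 3 the difference test called 129 genes (0.865%), 75 (0.503%) higher and 54 (0.362%) lower at day 2, and 14 cell-cycle genes, 13 of them mitosis genes, were among the higher ones with 0 among the lower ones. After KCl the cell-cycle median at day 2 was -0.57, and 0 of the 73 genes differed between the treatments by the test at an adjusted p under 0.05, while 6 were higher and 1 lower in SDS cells once the untreated part was taken out of the SE. Genes of homologous recombination and the Fanconi pathway, which repair broken and cross-linked DNA, had 5 of 18 lower and 0 higher at a median of -0.44, among them FANCD2 at 394 and 337 in untreated and 234 and 232 in SDS libraries (log2 fold change -0.65, SE 0.20, adjusted p = 0.0106), and limma without untreated library A called 0 of the 18, against 6 with all libraries.

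The inhibitors of cyclin-dependent kinases that hold senescent arrest were divided, with 2 of 7 tested higher and 2 lower at a median of -0.13. With the G1 cyclins and their kinases, 4 of 13 were higher and 3 lower. CDKN1A (chromosome 6, 36676463 to 36687332), which encodes p21, was at 22892 and 24816 in untreated and 30267 and 31623 in SDS libraries, 1.3-fold higher (log2 fold change 0.38, SE 0.08, adjusted p = 3.28e-05). Both SDS libraries lay above both untreated ones. It had been at -0.19 at day 1 (difference 0.57 (SE 0.11, adjusted p = 9.7e-05)) and stood at 0.72 at day 3, a gap from day 2 that the test did not call (adjusted p = 0.17). CDKN2A, which encodes p16, was at 655 and 655 in untreated and 800 and 910 in SDS libraries (log2 fold change 0.38, SE 0.14, adjusted p = 0.0444), a call lost under centring and under scaling by library totals, and with a library left out the adjusted p rose for CDKN2A to 0.168 without untreated library A (also lost without untreated library B and SDS library B). CDKN2C, another CDK4 and CDK6 inhibitor, was lower at 605 and 510 in untreated and 280 and 243 in SDS libraries (log2 fold change -1.09, SE 0.18, adjusted p = 1.03e-07). CDKN1B, which encodes p27, changed by -0.41 (SE 0.13, adjusted p = 0.0173), and CDK6, a kinase of the G1 phase, by -0.37 (SE 0.09, adjusted p = 0.00045). Left-out libraries raised the adjusted p in limma for CDKN1B to 0.105 without untreated library A (also lost without SDS library A) and CDK6 to 0.0566 without untreated library A. CCND2, cyclin D2 of the G1 phase, rose from 400 and 380 to 769 and 693 (log2 fold change 0.91, SE 0.16, adjusted p = 4.37e-07). CCND1, cyclin D1, changed by 0.69 (SE 0.07, adjusted p = 1.04e-20). GDF15, a secreted stress hormone, was at 1109 and 1019 in untreated and 1015 and 930 in SDS libraries and did not pass the test (log2 fold change -0.13, SE 0.13, adjusted p = 0.603).

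Genes that the factor ATF4 switches on when amino acids run short were below the untreated level. Of 27 tested, 17 were lower and 1 higher, at a median of -0.67, having stood at a median of 2.26 at day 0 and -0.50 at day 1. PHGDH, the first enzyme of serine synthesis, was at 2357 and 1604 in untreated and 756 and 720 in SDS libraries (log2 fold change -1.43, SE 0.16, adjusted p = 1.35e-17), compared with 2.10 at day 0. PSAT1, the next enzyme of that route, was at 2222 and 1237 in untreated and 666 and 620 in SDS libraries (log2 fold change -1.43, SE 0.41, adjusted p = 0.0056), compared with 3.05 at day 0. SLC7A5, a transporter of large neutral amino acids, was at 3886 and 2809 in untreated and 1575 and 1397 in SDS libraries (log2 fold change -1.17, SE 0.14, adjusted p = 2.26e-15). The untreated libraries of all 3 genes differed from each other by more than the SDS libraries did. ATF3, a stress-induced factor, was at 351 and 376 in untreated and 153 and 173 in SDS libraries (log2 fold change -1.16, SE 0.21, adjusted p = 1.33e-06). DDIT4, an inhibitor of mTORC1, changed by -1.10 (SE 0.22, adjusted p = 2.36e-05). ATF5 was the 1 higher call at 1052 and 1044 in untreated and 1533 and 1381 in SDS libraries (log2 fold change 0.48, SE 0.12, adjusted p = 0.000974). Its adjusted p rose in limma with a library left out (ATF5 to 0.0668 without untreated library A). ASNS, asparagine synthetase, a main target of ATF4, had 23 and 9 reads in the untreated and 6 and 2 in the SDS libraries, too few for a statement. Among 19 tRNA synthetases 4 were lower, WARS1 and AARS1 the most, with -0.64 (SE 0.11) and -0.55 (SE 0.11), and 3 were higher. Without untreated library A limma called 2 lower and 0 higher, against 4 and 3, and without either SDS library 2 and 1.

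Chaperones of the endoplasmic reticulum (ER) and of the cytosol moved in opposite directions. Of 16 tested ER chaperone and folding genes 11 were lower and 0 higher, at a median of -0.50, after 0.76 at day 0. HSPA5, the ER chaperone BiP, was at 35960 and 31843 in untreated and 17676 and 20054 in SDS libraries, 1.8-fold lower (log2 fold change -0.85, SE 0.09, adjusted p = 3.86e-18). HSP90B1, the ER member of the HSP90 family, was at 37930 and 35238 in untreated and 16773 and 17702 in SDS libraries, 2.12-fold lower (log2 fold change -1.09, SE 0.08, adjusted p = 4.63e-41). CALR, the calcium-binding lectin chaperone calreticulin, was at 48195 and 44742 in untreated and 26310 and 28669 in SDS libraries (log2 fold change -0.76, SE 0.08, adjusted p = 9.1e-19). In all 3 genes both SDS libraries lay well below both untreated ones. PDIA4, PDIA3 and MANF, which form disulfide bonds or protect against ER stress, changed by -0.86 (SE 0.09, adjusted p = 4.61e-20), -0.53 (SE 0.08, adjusted p = 7.88e-09) and -0.57 (SE 0.11, adjusted p = 6.52e-06). HSP90B1 was lower at day 2 than at day 1 (difference -0.50 (SE 0.12, adjusted p = 0.00185)) and than at day 3 (difference -0.45 (SE 0.13, adjusted p = 0.0395)), and lower than after KCl, where it stood at -0.23 (difference -0.86 (SE 0.11, adjusted p = 3.19e-12)). HSPA5 was higher at day 2 than at day 1, when it stood at -1.42 (difference 0.58 (SE 0.12, adjusted p = 0.00031)), and lower than at day 3 (difference -0.59 (SE 0.13, adjusted p = 0.00158)). In all, 7 of the 16 were lower in SDS than in KCl cells and 3 lower than at day 3, with 0 higher in either, and against day 1 these 2 genes were the 1 lower and the 1 higher call. Of 17 tested heat shock genes, mostly cytosolic chaperones, 10 were higher and 0 lower, at a median of 0.27. HSPB1, a small heat shock protein, was at 17172 and 17238 in untreated and 22395 and 25186 in SDS libraries (log2 fold change 0.47, SE 0.08, adjusted p = 5.66e-07). DNAJB1, an HSP40 co-chaperone, was at 4418 and 4177 in untreated and 6109 and 5810 in SDS libraries (log2 fold change 0.47, SE 0.09, adjusted p = 1.28e-06). HSPB8 changed by 0.59 (SE 0.13, adjusted p = 8.59e-05). HSPA8, the constitutive HSP70, changed by 0.35 (SE 0.07, adjusted p = 1.9e-05). In all, 5 heat shock genes were higher in SDS than in KCl cells. Limma with 1 library left out called 9 to 13 of the 25 unfolded protein response genes lower and 3 to 6 of 15 heat shock genes higher (3 without untreated library A or SDS library A, 4 without SDS library B, 10 with all libraries).

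The sequences that the ER stress factors read are printed because the element is rare among promoters and frequent in this list. The ER stress response element, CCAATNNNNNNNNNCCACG on either strand, occurred in the 250 bases before the start of 7 of 16 matched ER chaperone genes, 6 of them called lower, and in 26 of 35116 RefSeq promoters (0.074%). With the element in capitals and 15 bases on each side, read 5′ to 3′ on the strand of the gene from RefSeq's GRCh38.p14, the stretches of HSPA5 (chr9:125241376-125241424, minus strand), HSP90B1 (chr12:103930201-103930249, plus strand) and CALR (chr19:12938369-12938417, plus strand, where the element lies on the opposite strand) were:
HSPA5: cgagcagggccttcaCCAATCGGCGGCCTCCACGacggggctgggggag
HSP90B1: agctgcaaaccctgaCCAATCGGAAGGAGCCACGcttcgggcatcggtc
CALR: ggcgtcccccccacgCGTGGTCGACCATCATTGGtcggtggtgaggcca
The 7 tested ER chaperone genes with a match had a median log2 fold change of -0.48, and the 8 without one -0.36. Counted by gene, as the list is, 16 of 10508 tested genes with a RefSeq promoter (0.152%) held the ER stress response element. A heat shock element, GAANNTTCNNGAA on either strand, lay in the same window of 5 of 18 matched heat shock genes, 1 of them called higher, and of 155 promoters (0.441%). That gene was HSPA8, shown at chr11:123062164-123062206, minus strand, with the element on the opposite strand in capitals:
HSPA8: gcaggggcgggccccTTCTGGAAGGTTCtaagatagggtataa
The 11 tested heat shock genes without a match had 8 higher calls. By gene, 54 of 10508 tested genes with a RefSeq promoter (0.514%) held a heat shock element.

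**Figure D5:**
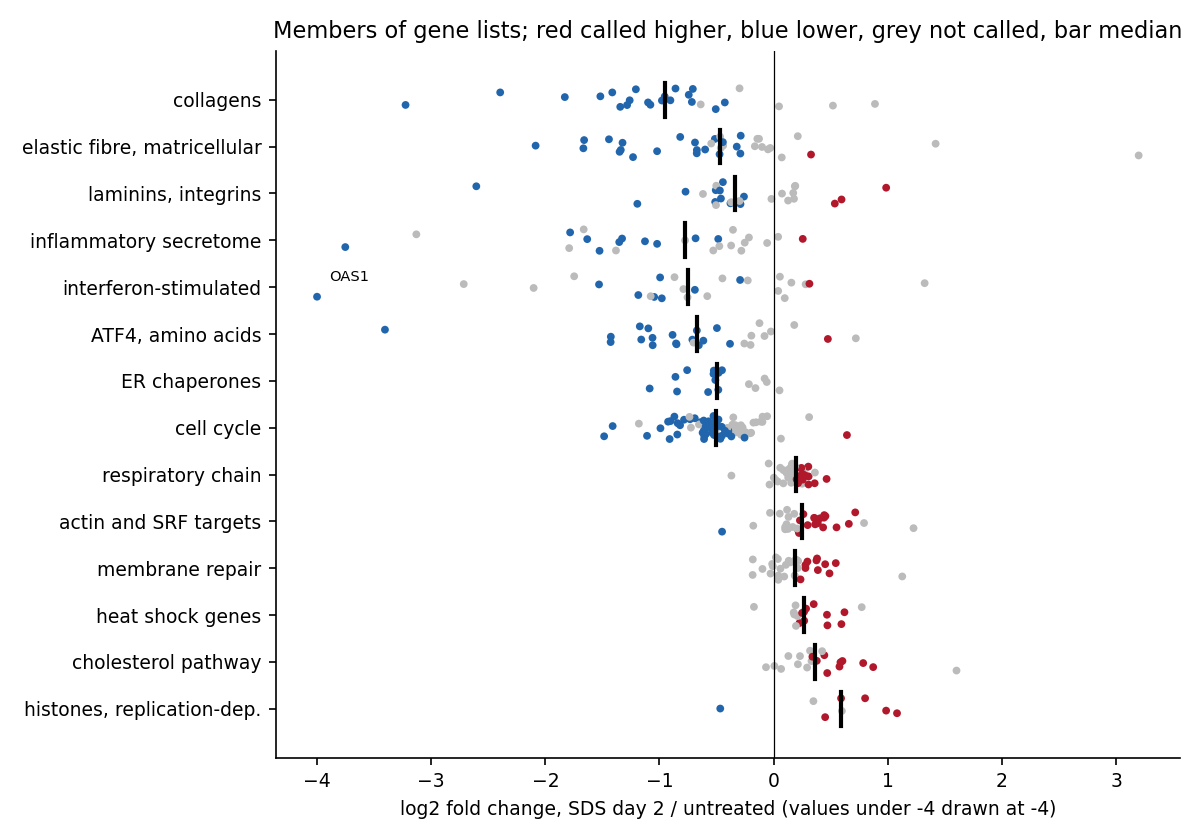
Log2 fold changes of PMD-Sen day 2 against Untreated (horizontal axis) of the tested members of 14 gene lists, 1 point a gene, red where called higher and blue where called lower, with the list median marked. Collagens, ATF4 genes, ER genes, cell-cycle genes and the inflammatory secretome have medians below 0, and actin and SRF genes, heat shock genes and the respiratory chain above 0. OAS1, which lies below -4, is drawn at -4.

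Inflammatory genes, which many senescent cells secrete, were mostly lower where they were called. Of 25 tested genes of the inflammatory secretome 10 were lower and 1 higher, at a median of -0.78. Over the 18 members with a mean of at least 100 the median was -0.51. IL6, a cytokine that serves as a mark of the senescent secretome, was at 67.6 and 106 in untreated and 21.9 and 34.2 in SDS libraries (log2 fold change -1.63, SE 0.46, adjusted p = 0.00451), against 2.79 at day 0. CCL2, a chemokine for monocytes, was at 696 and 1044 in untreated and 384 and 473 in SDS libraries (log2 fold change -1.02, SE 0.19, adjusted p = 3.01e-06), against -3.76 at day 0. In both genes the SDS libraries lay below the untreated ones. CSF1, the macrophage growth factor, was at 2683 and 2792 in untreated and 1041 and 1141 in SDS libraries (log2 fold change -1.33, SE 0.10, adjusted p = 5.72e-34). LIF, an IL6-family cytokine, was at 2382 and 2115 in untreated and 750 and 1014 in SDS libraries (log2 fold change -1.35, SE 0.14, adjusted p = 4.16e-19). TNFRSF11B, osteoprotegerin, and ICAM1, an adhesion receptor, changed by -1.13 (SE 0.10, adjusted p = 3.59e-26) and -1.52 (SE 0.40, adjusted p = 0.002). RELA, a subunit of NF-kB, was the 1 higher call at 2690 and 2627 in untreated and 3208 and 3139 in SDS libraries (log2 fold change 0.26, SE 0.09, adjusted p = 0.0343). CSF1, LIF, TNFRSF11B and TSLP were lower in SDS than in KCl cells, for TNFRSF11B by -1.21 (SE 0.14, adjusted p = 6.53e-15). CXCL12, the chemokine ligand of CXCR4, was the 1 member higher in SDS than in KCl cells, at -0.37 after SDS, which did not pass the test, and -1.71 after KCl (difference 1.34 (SE 0.30, adjusted p = 0.00073)). With 1 library left out, the adjusted p in limma rose for IL6 to 0.0731 without SDS library A (also lost without untreated library B), RELA to 0.136 without SDS library A (also lost without untreated library A and untreated library B and SDS library B) and TSLP to 0.0848 without untreated library A (also lost without SDS library A).

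Of 25 interferon-stimulated genes 8 were lower and 1 higher, at a median of -0.75. IRF1, a transcription factor of the interferon response, was at 702 and 686 in untreated and 320 and 378 in SDS libraries (log2 fold change -0.99, SE 0.16, adjusted p = 5.19e-08). OAS3, a sensor of double-stranded RNA, was at 432 and 247 in untreated and 90.9 and 146 in SDS libraries (log2 fold change -1.53, SE 0.30, adjusted p = 8.72e-06). GBP1, an interferon-induced GTPase, was the 1 higher call at 2120 and 2231 in untreated and 2651 and 2755 in SDS libraries (log2 fold change 0.31, SE 0.10, adjusted p = 0.0106). It was higher at day 2 than at day 1, at day 3 and after KCl. OAS1 had 22 and 4 reads in the untreated and 0 and 1 in the SDS libraries, too few for a fold change. These calls leaned on single libraries: limma called 1 of the 25 lower without untreated library A, 3 without SDS library A and 13 without untreated library B, against 9 with all. Without a library the adjusted p rose for OAS3 to 0.0878 without untreated library A and GBP1 to 0.0914 without untreated library A (also lost without SDS library A and SDS library B). Of 5 tested MHC class I genes, ERAP1, a peptide-trimming enzyme, was lower at 1552 and 1294 in untreated and 775 and 841 in SDS libraries (log2 fold change -0.82, SE 0.13, adjusted p = 2.3e-08). B2M, the light chain, was lower too, at -0.32 (SE 0.08). Complement genes had 3 lower and 1 higher of 10. C1S, a protease of the classical pathway, was at 8525 and 7711 in untreated and 3174 and 3824 in SDS libraries (log2 fold change -1.21, SE 0.10, adjusted p = 1.05e-28). In limma the adjusted p of B2M rose when a library was left out (B2M to 0.0665 without SDS library A (also lost without untreated library A)).

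Secreted growth factors moved in both directions. Of 21 tested, 5 were higher and 6 lower. HGF, the hepatocyte growth factor, was at 7724 and 6773 in untreated and 2545 and 3162 in SDS libraries (log2 fold change -1.35, SE 0.11, adjusted p = 4.93e-30). PDGFD, a ligand of the PDGF receptor beta, was at 234 and 216 in untreated and 42.2 and 58.1 in SDS libraries (log2 fold change -2.17, SE 0.30, adjusted p = 3.14e-11). NRG1, a ligand of ERBB receptors, rose from 1087 and 999 to 2287 and 2097 (log2 fold change 1.07, SE 0.11, adjusted p = 7.94e-19). FGF2 rose from 4017 and 4865 to 6577 and 6382 (log2 fold change 0.55, SE 0.10, adjusted p = 2.09e-06). VEGFC, a lymphatic growth factor, rose from 2371 and 2839 to 4327 and 3804 (log2 fold change 0.64, SE 0.11, adjusted p = 3.07e-07). VEGFA, the main angiogenic factor, was lower at 1675 and 1383 in untreated and 958 and 932 in SDS libraries (log2 fold change -0.70, SE 0.13, adjusted p = 1.44e-06). In each of these 6 genes the groups were apart. After KCl, HGF was at 0.04 (difference -1.38 (SE 0.16, adjusted p = 6.01e-14)) and NRG1 at 0.32 (difference 0.75 (SE 0.17, adjusted p = 0.000932)). Of 9 receptors 5 were lower, with PDGFRA at 10695 and 9193 in untreated and 5023 and 5394 in SDS libraries (log2 fold change -0.93, SE 0.09, adjusted p = 1.31e-20) and PDGFRB and FGFR1 changed by -0.69 (SE 0.08, adjusted p = 6.79e-15) and -0.56 (SE 0.09, adjusted p = 4.52e-09). MET, the receptor of HGF, was the 1 higher receptor at 3116 and 2936 in untreated and 4139 and 3714 in SDS libraries (log2 fold change 0.38, SE 0.10, adjusted p = 0.00139). With a library left out, its adjusted p rose in limma (MET to 0.0848 without SDS library A (also lost without untreated library A and untreated library B)). BMP4, a bone morphogenetic protein, was 3.37-fold lower at 1302 and 844 in untreated and 269 and 369 in SDS libraries (log2 fold change -1.75, SE 0.20, adjusted p = 1.02e-15). SMAD3, which carries TGF-beta signals, changed by -0.69 (SE 0.09, adjusted p = 2.59e-13). NOG, a BMP antagonist, rose by 0.63 (SE 0.13, adjusted p = 1.51e-05). Besides WNT2, of 16 WNT genes WNT5B rose by 0.46 (SE 0.09, adjusted p = 1.51e-05) and DKK2, a modulator of WNT receptors, by 1.28 (SE 0.30, adjusted p = 0.000346), and 3 in all were higher and 4 lower. IGFBP2 and IGFBP5, which bind insulin-like growth factors, changed by -1.34 (SE 0.21, adjusted p = 1.11e-08) and -1.61 (SE 0.41, adjusted p = 0.00116), among 3 lower and 0 higher of 9 genes of that axis. Without untreated library A limma called 3 growth factors higher, against 5, 3 receptors lower, against 5, and 1 WNT gene lower, against 3. It also called 3 growth factors higher without SDS library A and 1 WNT gene lower without SDS library B.

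Immediate early genes, the first to answer growth signals, had 5 higher and 6 lower of 32. EGR1, a zinc-finger factor of that class, was at 1477 and 1116 in untreated and 643 and 535 in SDS libraries (log2 fold change -1.14, SE 0.16, adjusted p = 4.33e-11). DUSP1, a phosphatase of MAP kinases, was at 3277 and 4098 in untreated and 6301 and 5899 in SDS libraries (log2 fold change 0.73, SE 0.11, adjusted p = 1.34e-09). Of 20 genes that YAP and TEAD control, 2 were higher, a share near the 8.79% of all genes, and 8 lower, against 6.97% of all genes. ANKRD1, at 148 and 277 in untreated and 563 and 470 in SDS libraries (log2 fold change 1.29, SE 0.25, adjusted p = 4.87e-06), was the largest rise. IGFBP3, at 9310 and 8136 in untreated and 4667 and 5299 in SDS libraries (log2 fold change -0.81, SE 0.10, adjusted p = 2.47e-14), was the largest fall. ANKRD1 was at -0.52 at day 1 and -0.91 after KCl, and both differences were called (1.81 (SE 0.41, adjusted p = 0.000716) and 2.20 (SE 0.42, adjusted p = 5.01e-05)). In limma, left-out libraries raised the adjusted p of ANKRD1 to 0.0618 without untreated library A. Limma called 1 immediate early gene higher and 2 lower without untreated library A or SDS library A, against 5 and 6 with all libraries, and it called 4 YAP and TEAD genes lower without untreated library A, against 9.

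Among lipid and energy genes the calls were mostly small rises. Of 20 genes of the cholesterol pathway 9 were higher and 0 lower, at a median of 0.36. FDPS, which makes farnesyl diphosphate, was at 1237 and 1190 in untreated and 2135 and 2048 in SDS libraries (log2 fold change 0.78, SE 0.11, adjusted p = 1.91e-11). ACLY, which supplies cytosolic acetyl-CoA, was at 12851 and 12228 in untreated and 20604 and 19126 in SDS libraries (log2 fold change 0.66, SE 0.08, adjusted p = 7.06e-15). ABCA1, which exports cholesterol, and MYLIP, which degrades the LDL receptor, fell. ABCA1 went from 1652 and 1404 to 636 and 620 (log2 fold change -1.28, SE 0.13, adjusted p = 4.64e-21). MYLIP changed by -1.10 (SE 0.25). Beside these, the median log2 ratio of untreated library A to B over the cholesterol pathway was 0.23, against -0.004 over all tested genes with a mean of at least 100. The lipid calls moved with the untreated library used. Over the 42 lipid synthesis and control genes with recovered reads limma called 12 higher and 4 lower with all libraries, 13 and 4 at a median of 0.35 without untreated library A, and 6 and 9 at a median of 0.02 without untreated library B. Without SDS library A it called 6 higher and 4 lower, and without SDS library B 8 and 4. Of 44 respiratory chain genes 17 were higher and 0 lower, 9 nuclear and 8 mitochondrial, at a median of 0.19. COX5A, a subunit of cytochrome oxidase, was at 1336 and 1384 in untreated and 1873 and 1878 in SDS libraries (log2 fold change 0.46, SE 0.11, adjusted p = 0.000214). Both SDS libraries lay above both untreated ones. Limma called 1 of 36 higher without untreated library A or SDS library A and 2 without SDS library B, against 16 with all libraries. Glycolysis genes had 8 higher and 1 lower of 20. PFKM, phosphofructokinase of muscle type, was at 2297 and 2402 in untreated and 3338 and 3071 in SDS libraries (log2 fold change 0.45, SE 0.10, adjusted p = 7.95e-05). SLC2A1, the glucose transporter GLUT1, was lower at 9952 and 11326 in untreated and 7020 and 7798 in SDS libraries (log2 fold change -0.52, SE 0.09, adjusted p = 8.66e-07). Limma called 3 of 28 glycolysis and hypoxia genes higher without untreated library A and 4 without SDS library A, against 8 with all libraries. ANGPTL4, an inhibitor of lipoprotein lipase, rose by 1.04 (SE 0.18, adjusted p = 1.32e-07) and had been higher still at day 1, at 2.34. Of 18 NRF2 targets, which answer oxidants, 5 were higher and 5 lower. Among them HMOX1, heme oxygenase, was at 1002 and 1701 in untreated and 654 and 549 in SDS libraries (log2 fold change -1.17, SE 0.39, adjusted p = 0.0223), after 3.18 at day 0. Of 21 genes of NRF2 and metal response limma called 1 higher without SDS library A, 2 without untreated library A and 3 without SDS library B, against 5. MT2A, a metal-binding protein, rose from 10128 and 13636 to 20588 and 18916 (log2 fold change 0.73, SE 0.12, adjusted p = 1.79e-08). Ribosomal protein genes had 4 higher and 0 lower of 52, at a median of 0.07, a share near that of all genes, and limma called 0 or 1 of them higher with a library left out.

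Some genes of membrane repair, the resealing of a torn plasma membrane, were higher. Of 34 tested, 10 were higher and 0 lower, at a median of 0.19, made up of 2 of 18 ESCRT genes, a share near the 8.79% of all genes called higher, and 8 of 16 annexins, ferlins and other genes. ANXA1, a calcium-dependent membrane-binding annexin, was at 14417 and 15750 in untreated and 22150 and 21841 in SDS libraries (log2 fold change 0.54, SE 0.08, adjusted p = 3.06e-10). CAPN1, a calcium-activated protease, was at 8441 and 8779 in untreated and 11678 and 11872 in SDS libraries (log2 fold change 0.45, SE 0.08, adjusted p = 1.66e-07). S100A11, an annexin partner, was at 6098 and 6220 in untreated and 8146 and 7967 in SDS libraries (log2 fold change 0.39, SE 0.08, adjusted p = 2.15e-05). For these 3 genes both SDS libraries exceeded both untreated ones. ANXA2 and CAPN2, whose reads per library were not recovered, changed by 0.38 (SE 0.07, adjusted p = 3.01e-06) and 0.38 (SE 0.08, adjusted p = 1.51e-05). CHMP4B, the ESCRT-III subunit that polymerises at membrane wounds, was at 3498 and 3541 in untreated and 3385 and 3593 in SDS libraries and did not pass the test (log2 fold change -0.01, SE 0.09, adjusted p = 0.962), with a 95% interval of the log2 fold change from -0.19 to 0.16. CHMP4A had 1 and 1 reads in the untreated and 0 and 1 in the SDS libraries, and GP6, the platelet collagen receptor, had 0 in all 4, so neither was tested. The authors report CHMP4A antibody signals in replicatively senescent WI-38 cells, and why so few CHMP4A reads were counted was not tested. Among 21 calcium-handling genes 2 were higher, again a share near that of all genes, and 5 lower, against 6.97% of all genes. ATP2B4, a calcium pump of the plasma membrane, rose from 22811 and 22101 to 32190 and 30226 (log2 fold change 0.47, SE 0.08, adjusted p = 1.59e-08). ATP2B1, another such pump, and STIM2, a sensor of stored calcium, changed by -0.51 (SE 0.10, adjusted p = 3.03e-05) and -0.51 (SE 0.12, adjusted p = 0.000428). Lysosome genes had 6 higher and 1 lower of 25. CTSB, cathepsin B, was at 5504 and 5259 in untreated and 7649 and 7537 in SDS libraries (log2 fold change 0.50, SE 0.08, adjusted p = 3.94e-08). CTSC, cathepsin C, was at 12649 and 11292 in untreated and 5553 and 6774 in SDS libraries (log2 fold change -0.96, SE 0.10, adjusted p = 8.24e-18). With 1 library left out, limma called 3 to 7 of 30 membrane repair genes higher, 3 without untreated library A and 4 without either SDS library, against 8 with all. Of the calcium-handling genes it called 2 lower without untreated library A and 3 without SDS library B, against 5.

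Chromatin genes were mixed. HMGA2, an architectural chromatin protein of early development and senescence, was 2.07-fold higher at 9288 and 9724 in untreated and 20462 and 18913 in SDS libraries (log2 fold change 1.05, SE 0.08, adjusted p = 2.53e-36), and higher than at day 3 (difference 0.55 (SE 0.13, adjusted p = 0.0119)) and than after KCl (difference 0.58 (SE 0.12, adjusted p = 0.000206)). It had been at 1.31 (SE 0.10) at day 1, a gap from day 2 that the test did not call. HMGB2, an HMG-box protein of dividing cells, was lower at 2028 and 1752 in untreated and 940 and 983 in SDS libraries (log2 fold change -0.98, SE 0.12, adjusted p = 1.47e-14). LBR, the lamin B receptor, changed by -0.76 (SE 0.12). In all, 11 of 24 chromatin and lamina genes were lower and 2 higher. Of 8 tested replication-dependent histone genes 5 were higher and 1 lower. H2BC12, a histone H2B gene, was at 993 and 1163 in untreated and 2145 and 2118 in SDS libraries (log2 fold change 0.99, SE 0.12, adjusted p = 2.15e-15). H2BC5 was at 188 and 171 in untreated and 364 and 397 in SDS libraries (log2 fold change 1.08, SE 0.21, adjusted p = 9.6e-06), with no overlap between groups in either. Without untreated library A limma called 2 of 15 histone genes higher and 0 lower, against 6 and 4 with all libraries, and without SDS library A 3 and 1. Of 22 chromatin and lamina genes it called 6 lower without untreated library A, against 10.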

How the data were processed

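RNA of WI-38 cells was sequenced by the authors, who, per the submitters' processing notes, used Trim Galore, HISAT2, HTSeq, featureCounts and DESeq2 with the build GRCh38/hg38 (no versions given in the sources used here). The deposited tables give, for each gene of a comparison with untreated cells, the mean normalized count over the libraries (the signal, reads divided by size factors), the authors' log2 fold change with its SE, and a p-value; the deposited adjusted p served only as an alternative. The main test was this Wald p-value, adjusted by Benjamini-Hochberg over 14920 genes whose mean reached 10 and called under 0.05. Differences between PMD-Sen day 2 and PMD-Sen day 1, PMD-Sen day 3 or Ca2+-Sen day 2 were divided by the root of the summed squared SEs, with a two-sided normal p. The tables hold no counts of single libraries, so no count model was fitted to them.

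Whole reads of each library were recovered from the digits of the deposited means, for 14857 of 14920 genes, within 4.51e-10 of a whole number, and both untreated libraries came out equal from 2 tables in 27094 of 27094 genes. No label ties these libraries to a replicate number, and they are named A and B by size factor. Recovered reads were fitted with limma 3.58.1 (voom) in R 4.3.3 as an alternative and with each library left out; other steps used Python 3.11.15, pandas 2.3.3, NumPy 2.4.6, SciPy 1.17.1, numba 0.67.0 and matplotlib 3.10.9. The steps were tested on simulated data. With no gene changed, limma called 8 of 14920 genes and the Wald and difference tests 0. With 200 genes changed by 1 on the log2 scale, 10.4% of limma's calls were unchanged genes, and by 0.5, 18.4%. For a Wald test with known dispersion these shares were 3.18% and 3.64%. The difference test as used here recovered 20.5% of differences of 0.5 and 77.5% of 1, so it can miss such gaps. Libraries held about 15373723 to 51451215 reads. Promoters were the 250 bases before each RefSeq start in GRCh38.p14, and RefSeq matched 261 of 262 named genes.

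The comparison, the 46 gene lists and the rules were chosen with earlier results of these data known. Named genes were, in each list, up to 6 called genes whose mean reached 100, those with the largest log2 fold change plus any called member against the list's direction, the 12 largest rises and 12 largest falls among called genes above the same mean that passed the filter on names, and CDKN1A, CDKN2A, IL6, CCL2, LMNB1, GDF15, CHMP4A, CHMP4B and GP6. Of 1108 list members 986 were tested, and 2 were not listed under the symbol used. Some named genes and 1 list are not reported here. Alternatives were a mean of at least 100, no filter, a log2 fold change of at least 1, centring, scaling by library totals, the deposited adjusted p, limma, and each library left out.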

Additional observations from a re-analysis of the deposited data

Results flagged for a closer look

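Each result here is a difference between 2 groups' log2 fold changes against the same untreated libraries that the test of the difference called. The counts were 543 genes between PMD-Sen day 2 and PMD-Sen day 1, 129 between day 2 and PMD-Sen day 3, and 354 between PMD-Sen day 2 and Ca2+-Sen day 2.

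Some genes were called in opposite directions on day 1 and day 2. The difference, day 2 minus day 1, was 2.66 for ACTA2 (-1.95 to 0.72, adjusted p = 1.72e-87) and 1.88 for CNN1 (-1.22 to 0.66, adjusted p = 1.77e-35). For ACTB, cytoplasmic beta actin, often used as a reference gene, it was 0.69 (-0.25 to 0.44, adjusted p = 1.42e-08). The signalling genes BMP2 and JUNB went the other way, BMP2 by -1.42 (0.72 to -0.70, adjusted p = 0.000194), at 354 and 497 in untreated and 286 and 236 in SDS libraries on day 2, and JUNB, an AP-1 subunit, by -1.03 (0.68 to -0.35, adjusted p = 1.99e-05), at 1130 and 1030 in untreated and 843 and 855 in SDS libraries. In limma with 1 library left out, the adjusted p rose for BMP2 to 0.144 without untreated library B (also lost without SDS library B).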

How the results depend on the processing

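Of 2352 called genes, 326 (98 higher, 228 lower) also reached a size of 1 on the log2 scale. The count was 2445 among genes with a mean of at least 100, 1944 without a filter, 2237 after centring (1020 higher, 1217 lower, against 1312 and 1040), 2263 with scaling by library totals (1105 and 1158), 2426 with the adjusted p deposited, 3001 by limma, and 2338 without 108 genes whose libraries of a group differed by over 1 on the log2 scale, an alternative chosen after seeing the data. With 1 library left out limma called 1026 to 2283 genes, 1026 without untreated library A and 1288 without SDS library A, where the lone library of a group is assumed to vary like the other group. Beyond the smaller number of samples, the cause of the fall in calls was not tested. Of 2317 called genes with recovered reads limma called 2231, and 2316 kept their sign in limma with all libraries and in every leave-out.

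The differences lost most calls under a minimum size of 1, which left 112 of 543 against day 1, 19 of 129 against day 3 and 83 of 354 against KCl, and gained calls when the untreated part was taken out of the SEs, to 1569, 705 and 1387. Their splits of higher and lower calls moved with scaling: against day 1 from 379 and 164 to 258 and 236 by library totals, against day 3 from 75 and 54 to 58 and 68 by centring, and against KCl from 154 and 200 to 116 and 256 by centring and 119 and 249 by totals. The shifts behind these were 0.01 to 0.08 on the log2 scale.

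Of 260 named genes tested, 13 lost their call under centring, 12 under library totals, 10 under limma and 34 to 97 with 1 library left out, and none changed sign. List medians kept within 1 median SE in all 46 lists under centring and in 39 with a mean of at least 100, and moved by more in 5, with 2 lists left without a gene. The inflammatory secretome and complement lists were among those 5. No paired analysis was possible because the recovered libraries carry no replicate number. With 2 libraries a group, and untreated libraries of about 15373723 and 18832068 reads, small changes of rare RNAs were not detectable at this depth.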

Other observations

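Several further gene groups were measured. Adhesion receptors had 5 lower and 0 higher of 10. PCDH18, a protocadherin, was at 7918 and 8544 in untreated and 3718 and 3959 in SDS libraries (log2 fold change -1.10, SE 0.09, adjusted p = 2.28e-34). CDH11, the cadherin of mesenchymal cells, was at 6334 and 5585 in untreated and 3961 and 4318 in SDS libraries (log2 fold change -0.53, SE 0.10, adjusted p = 1.22e-06). After KCl PCDH18 stood at -0.10, a difference that the test called. Of 7 prostaglandin genes, PTGS2 was higher, and PTGER2, a receptor of prostaglandin E2, and PTGS1, the constitutive cyclooxygenase, were lower, PTGER2 at 1920 and 1692 in untreated and 901 and 1039 in SDS libraries (log2 fold change -0.90, SE 0.12, adjusted p = 3.42e-11). In the BCL2 family 2 of 9 were higher and 0 lower. Among them PMAIP1, the pro-apoptotic NOXA, was at 1735 and 2164 in untreated and 2778 and 2855 in SDS libraries (log2 fold change 0.53, SE 0.12, adjusted p = 8.33e-05). The proteasome had 3 higher and 0 lower of 30, a share of higher calls near the 8.79% of all genes. PSMD2, a base subunit, was at 17588 and 18448 in untreated and 25568 and 23598 in SDS libraries (log2 fold change 0.45, SE 0.08, adjusted p = 4.94e-07). Ribosome biogenesis genes had 3 higher and 1 lower of 22. Of 24 genes of TGF-beta and BMP signalling 2 were higher, again a share near that of all genes, and 5 lower, against 6.97% of all genes. Of 11 hypoxia genes 2 were higher and 1 lower, of 10 fatty acid genes 2 and 1, of 12 genes of sterol uptake and control 0 and 3, and of 5 metallothionein and zinc genes 1 and 0. With a library left out limma called 1 to 6 proteasome genes higher, against 4, 2 to 4 TGF-beta and BMP genes lower, against 5, and 3 to 6 adhesion receptors lower, against 5.

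Markers of other cell types were few. TEK, a receptor of endothelium, stood at 2664 and 2886 in untreated and 1193 and 1307 in SDS libraries (log2 fold change -1.15, SE 0.11, adjusted p = 4.24e-25) as the 1 call among 4 endothelial markers, and of 5 epithelial markers 2 were higher and 1 lower. KRT19, a keratin, was at 1365 and 979 in untreated and 1548 and 1919 in SDS libraries (log2 fold change 0.56, SE 0.15, adjusted p = 0.00351), a call that limma did not make. Neuron markers had 0 higher and 1 lower of 4 and muscle markers 0 and 0 of 2.

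Outside the rule, and chosen after their values were seen, 4 genes are given as values. RN7SL1, the RNA of the signal recognition particle, which has near-identical copies, was at 1815 and 1977 in untreated and 369 and 349 in SDS libraries (log2 fold change -2.40, SE 0.12, adjusted p = 6.47e-80). EDN1, the peptide endothelin 1, was at 250 and 317 in untreated and 762 and 659 in SDS libraries (log2 fold change 1.33, SE 0.18, adjusted p = 1.86e-11). HSPB7 and CAVIN4, both known from muscle, were at 245 and 405 in untreated and 847 and 790 in SDS libraries (log2 fold change 1.34, SE 0.20, adjusted p = 1.26e-09) and at 137 and 155 in untreated and 450 and 384 in SDS libraries (log2 fold change 1.52, SE 0.22, adjusted p = 5.81e-10).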
